A study of Homo sapiens with 4 samples.

Results

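Aldehyde dehydrogenase genes were followed in the human urothelial carcinoma line UM-UC-3, which is an established line, and in its cisplatin-resistant subline. The genes were taken by symbol from a list of 8 family members: ALDH1A1, ALDH1A3, ALDH1B1, ALDH2, ALDH3A2, ALDH7A1, ALDH9A1 and ALDH18A1. The table analysed lists 13743 genes and held 6 of these 8, and ALDH1A3 and ALDH2 were not analysed here. All 6 passed the minimum for testing, a mean of 1 CPM over the 4 samples. Cap analysis of gene expression (CAGE), which captures and counts the capped 5′ ends of transcripts, was applied to 2 wild type samples and 2 samples of cisplatin-resistant (CR) cells. The CR cells were grown in DMEM with serum and 5 µM cisplatin (CDDP), a platinum drug that crosslinks DNA. The sources used here do not give the wild type medium, so resistance and the presence of the drug cannot be told apart, and the labels do not say whether the subline is 1 clone. No label says that the samples of a group were grown separately, and the p-values therefore reflect a spread between samples that may be technical.

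Aldehyde dehydrogenases oxidise aldehydes to carboxylic acids, with NAD+ or NADP+ as the electron acceptor. The family serves many routes: it makes retinoic acid from retinaldehyde, clears aldehydes that arise from lipid peroxidation and alcohol, and completes steps of amino acid, carnitine and fatty aldehyde metabolism. High aldehyde dehydrogenase activity, ALDH1A1 in particular, is widely used as a marker of stem-like cells in carcinomas, the urothelial kind included. ALDH18A1 runs the other way from its relatives, since it reduces glutamate to the semialdehyde from which proline and ornithine are made.

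ALDH1A1 rose strongly in the resistant cells, ALDH3A2 and ALDH18A1 rose slightly, ALDH7A1 fell slightly, and the differences of ALDH9A1 and ALDH1B1 did not pass the test. Thus 4 of the 6 members were called, 3 higher and 1 lower, where 55.2% of all 12587 tested genes were called, 33.5% as higher and 21.6% as lower. Beside that background, a count of 4 in 6 says nothing particular about these genes. The groups did not overlap in 6 of 6 members, 3 with resistant samples higher and 3 with them lower, against 78.5% of all tested genes, 46.1% with resistant samples higher and 32.3% with them lower. The median log2 fold change of the 6 members was 0.09, beside 0.09 for all tested genes. The test was limma on log2(CPM + 1) over all tested genes, with Benjamini-Hochberg adjustment and a threshold of 0.05, and every log2 fold change below is on that scale, resistant minus wild type. Under median-ratio scaling and under quantile normalization the split of the members became 2 higher and 3 lower, without resistant replicate 2 it was 2 higher and 0 lower, and without wild type replicate 2 it was 2 higher and 2 lower. Over all genes the split of 4221 higher to 2724 lower became 3486 to 3484 under median-ratio scaling, and 4285 and 4279 genes in all passed once resistant replicate 1 or 2 was left out.

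**Figure D1:**
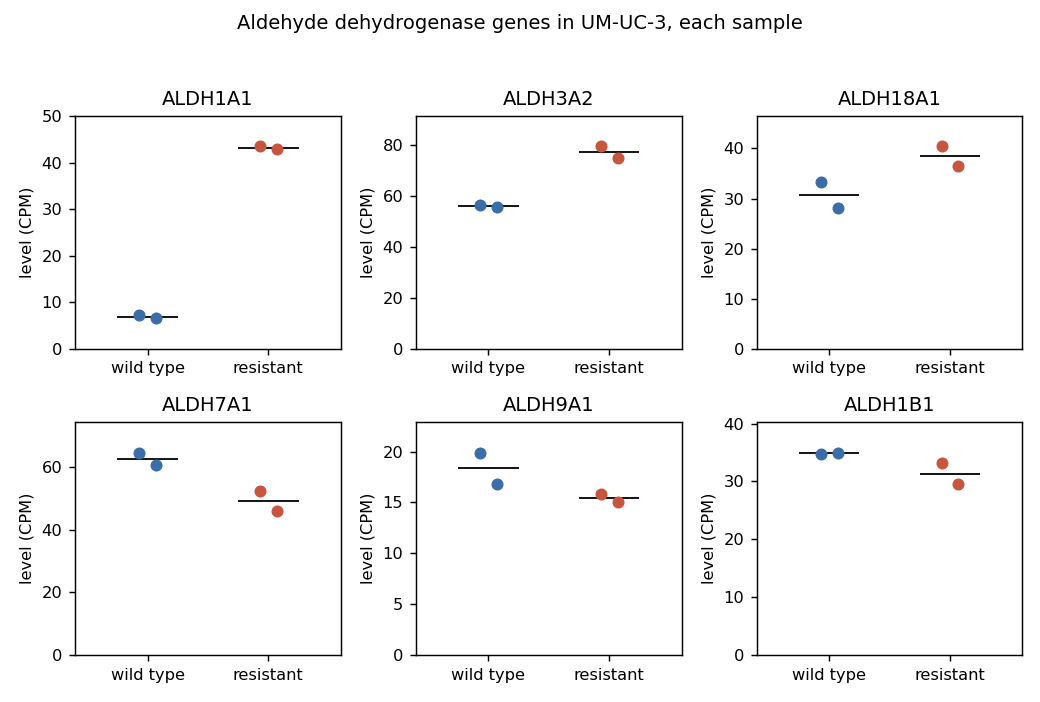
Level in CPM (y axis, from 0) of the 6 aldehyde dehydrogenase genes in each of the 2 wild type (blue) and 2 resistant (red) samples; the bars are group means. ALDH1A1 goes from 7.29 and 6.55 CPM to 43.5 and 42.9 CPM, a ratio of 6.24, while the group means of the other genes differed by at most 1.38 times.

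The promoters annotated for the 3 members that rose are shown first, because a CAGE read marks where transcription starts. Each line gives the 140 bases that precede the annotated start, 5′ to 3′ on the strand of the gene, from RefSeq on GRCh38.p14. Capitals mark matches to the motifs searched, of which the ALDH3A2 line has none, and the start that these cells used is not known from gene totals.
ALDH1A1, chr9:72953054-72953193, minus strand: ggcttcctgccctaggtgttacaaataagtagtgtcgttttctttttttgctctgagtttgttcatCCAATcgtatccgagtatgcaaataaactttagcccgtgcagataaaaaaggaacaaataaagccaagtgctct
ALDH18A1, chr10:95656712-95656851, minus strand: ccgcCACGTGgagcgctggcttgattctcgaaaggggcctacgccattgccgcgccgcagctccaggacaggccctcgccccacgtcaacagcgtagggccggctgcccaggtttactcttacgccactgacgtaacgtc
ALDH3A2, upstream start, chr17:19647996-19648135, plus strand: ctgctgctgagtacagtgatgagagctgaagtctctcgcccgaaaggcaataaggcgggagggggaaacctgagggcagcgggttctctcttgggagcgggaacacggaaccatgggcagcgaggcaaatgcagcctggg

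The ALDH1A1 promoter is poor in G and C. Over the window from 250 bases before to 50 after the start, its GC content was 40.3%, lower than in all but 11.8% of the 35116 RefSeq promoters of that length, whose median was 58.7%, and it held 7 CpG dinucleotides. The windows of ALDH1B1, ALDH7A1, ALDH9A1 and ALDH18A1 had 71.3%, 64.3%, 66.7% and 67.0% GC. ALDH3A2 has 2 annotated starts, whose windows had 55.0% and 73.3% GC. On both strands, 6 motifs were searched. They were the TATA box TATAAA, the CCAAT box CCAAT, the GC box GGGCGG, the antioxidant response element core TGACNNNGC, the AP-1 site TGANTCA and the E-box CACGTG. No motif here is contained in another. ALDH1A1 held 1 match, a CCAAT box that starts 74 bases before the annotated start; CCAAT, which the factor NF-Y binds, occurs in 34.6% of all promoters, among them ALDH1B1, ALDH7A1 and the downstream start of ALDH3A2. ALDH18A1 held 1 site, the palindromic E-box CACGTG 136 bases before the start, a motif found in 7.26% of promoters and also at the downstream start of ALDH3A2. GC boxes, found in 45.0% of promoters, occurred in the windows of ALDH1B1, ALDH7A1, ALDH9A1 and the downstream start of ALDH3A2. TATAAA, TGACNNNGC and TGANTCA, in 11.5%, 13.3% and 7.71% of promoters, matched in none of the 7 member windows. A match describes letters only.

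ALDH1A1 (ENSG00000165092.13), the cytosolic enzyme that oxidises retinaldehyde to retinoic acid, measured 7.29 and 6.55 CPM in the wild type samples against 43.5 and 42.9 CPM in the resistant ones. Both resistant samples lay far above both wild type samples, and the replicates of each group lay close together. The means were 6.92 ± 0.523 and 43.2 ± 0.460 CPM (SD, n = 2 each), a ratio of 6.24, and the 4 ratios of single samples lay between 5.88 and 6.64. Its fitted log2 fold change was 2.48 (standard error 0.10; limma, adjusted p = 1.24e-06). Among 12587 tested genes it had the 36th largest increase on the log2(CPM + 1) scale. That rank depends on the pseudocount of 1 CPM, which understates the change of genes with low levels. The values rest on about 252 wild type reads and 1685 resistant reads, as worked out from the CPM that 1 read is worth in each column. The ratio of 6.24 had an exact (Clopper-Pearson) 95% interval of 5.47 to 7.15 that covers counting error only.

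ALDH3A2 (ENSG00000072210.19) encodes the membrane-bound fatty aldehyde dehydrogenase, whose loss causes Sjögren-Larsson syndrome. It measured 56.4 and 55.5 CPM in the wild type samples against 79.4 and 74.8 CPM in the resistant ones. The groups were well apart and the resistant samples spread more than the wild type ones. The means of 56.0 ± 0.644 and 77.1 ± 3.22 CPM (SD, n = 2 each) gave a ratio of 1.38 and a log2 fold change of 0.45 (standard error 0.07; limma, adjusted p = 0.00096). In GENCODE 29 a small noncoding RNA row inside ALDH3A2 on the opposite strand was also in the table and read 1.12 CPM or less in each sample.

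ALDH18A1 (ENSG00000059573.9), the enzyme that opens proline synthesis in mitochondria, measured 33.2 and 28.1 CPM in the wild type samples against 40.4 and 36.5 CPM in the resistant ones. The groups did not overlap, but the lowest resistant sample lay near the highest wild type sample. The means were 30.7 ± 3.64 and 38.5 ± 2.74 CPM (SD, n = 2 each), a ratio of 1.25, with a log2 fold change of 0.32 (standard error 0.10; limma, adjusted p = 0.0275). This call ended without resistant replicate 1 (adjusted p = 0.214), without resistant replicate 2 (0.076) and without wild type replicate 2 (0.103), under median-ratio scaling (0.059), under quantile normalization (0.121) and without the trend (0.057).

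ALDH7A1 (ENSG00000164904.18), antiquitin, oxidises the semialdehyde formed in lysine breakdown, and its loss causes pyridoxine-dependent epilepsy. It measured 64.6 and 60.6 CPM in the wild type samples against 52.5 and 46.1 CPM in the resistant ones, so both resistant samples were lower. The means were 62.6 ± 2.84 and 49.3 ± 4.53 CPM (SD, n = 2 each), 1.27 times higher in wild type, with a log2 fold change of -0.34 (standard error 0.09; limma, adjusted p = 0.0101). Without resistant replicate 2 the log2 fold change was -0.25 and no longer passed (adjusted p = 0.131).

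ALDH9A1 (ENSG00000143149.12), which acts in carnitine synthesis on an aldehyde derived from trimethyllysine, measured 19.9 and 16.9 CPM in the wild type samples against 15.9 and 15.1 CPM in the resistant ones. The wild type samples differed from each other by more than the lower of them differed from the resistant samples. Its fitted log2 fold change was -0.23 (standard error 0.11; limma, adjusted p = 0.108). It passed as lower under median-ratio scaling (adjusted p = 0.024), under quantile normalization (0.0149) and without wild type replicate 2 (0.0313).

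ALDH1B1 (ENSG00000137124.8), a mitochondrial enzyme close to ALDH1A1 in sequence that oxidises acetaldehyde and other aldehydes, measured 34.8 and 35.0 CPM in the wild type samples against 33.2 and 29.5 CPM in the resistant ones. One resistant sample was close to wild type and the other lower. Its fitted log2 fold change was -0.15 (standard error 0.09; limma, adjusted p = 0.178), and it passed as lower under median-ratio scaling (adjusted p = 0.0393) and quantile normalization (0.0229).

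A further 5 rows of the table carry family symbols outside the list of 8. ALDH5A1, succinate semialdehyde dehydrogenase of the GABA shunt, rose from 5.81 and 5.84 to 10.2 and 10.9 CPM (log2 fold change 0.76; limma, adjusted p = 0.00086). ALDH6A1, methylmalonate semialdehyde dehydrogenase of valine breakdown, fell from 7.79 and 8.54 to 3.78 and 4.27 CPM (log2 fold change -0.87; adjusted p = 0.00072). ALDH3B1, which acts on lipid aldehydes, read 16.8 and 17.2 CPM in the wild type samples against 12.0 and 12.2 CPM in the resistant ones and fell (adjusted p = 0.0046). ALDH16A1, a member without a functional catalytic cysteine in mammals, fell from 12.2 and 12.3 to 8.68 and 7.64 CPM (adjusted p = 0.0046), a call that ended without resistant replicate 2 (0.058). ALDH4A1, which oxidises the proline-derived semialdehyde in the direction opposite to ALDH18A1, read 13.3 and 10.7 CPM in the wild type samples against 15.2 and 15.2 CPM in the resistant ones (adjusted p = 0.051), and passed as higher without wild type replicate 1 (0.0116) and under the robust trend (0.0442). Over all 11 family rows, 4 were higher and 4 lower, with a median log2 fold change of -0.15 and a mean of 0.16, beside 33.5% higher, 21.6% lower and a median of 0.09 among all tested genes.

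**Figure D2:**
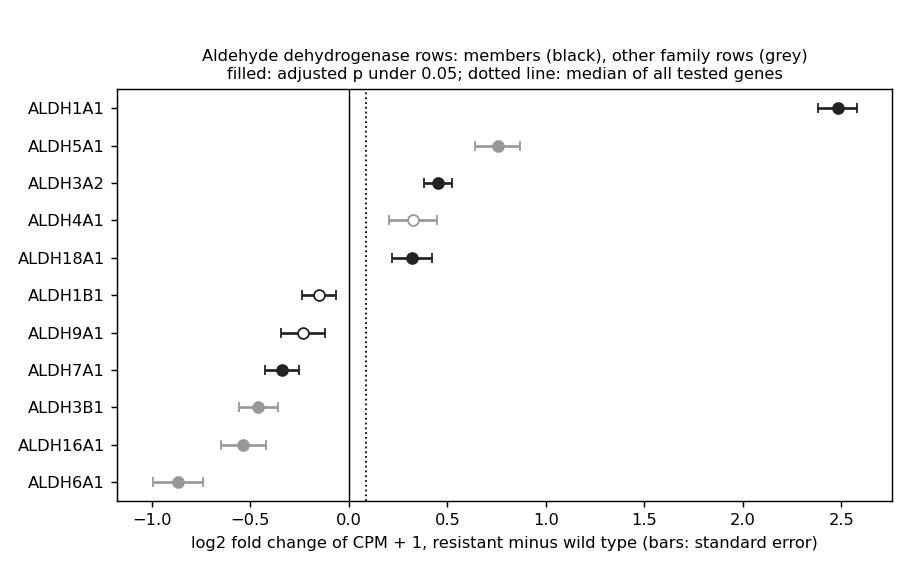
Log2 fold change of CPM + 1, resistant minus wild type (x axis), with the standard error as bars, for the 6 members (black) and 5 other family rows (grey); filled points passed an adjusted p of 0.05 and the dotted line is the median of all tested genes, 0.09. ALDH1A1 at 2.48 stands apart from the other rows, which lie between -0.87 and 0.76.

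The summed level of the 6 members was 216 and 202 CPM in the wild type samples against 265 and 245 CPM in the resistant ones. Without ALDH1A1 the sum was 209 and 196 CPM against 221 and 202 CPM, and the groups overlapped. ALDH1A1 made up 3.37% and 3.23% of the sum in wild type and 16.4% and 17.5% in resistant samples, while ALDH7A1 went from 29.9% and 29.9% to 19.8% and 18.8%. These shares are of CPM as deposited, which was not divided by gene length; the sources used here do not say whether reads inside genes were counted.

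ALDH1A1 feeds retinoic acid to nuclear receptors, and genes of that pathway were called in both directions. Of 29 symbols listed, 14 were in the table and tested, and 5 were higher and 4 lower (median log2 fold change -0.05, against 0.09 for all tested genes). The counts of this list and of those that follow stand beside 55.2% called among all tested genes, 33.5% as higher and 21.6% as lower, and none of them is read as particular to its list. The receptor RARA went from 14.7 and 11.7 to 27.5 and 25.9 CPM (log2 fold change 0.97; limma, adjusted p = 0.00027), and its heterodimer partner RXRA from 11.7 and 10.0 to 18.8 and 18.0 CPM (adjusted p = 0.00098). The related receptor RARG went the other way, from 13.3 and 12.7 to 2.88 and 2.98 CPM (log2 fold change -1.83; adjusted p = 1.20e-05). DHRS3, which reduces retinaldehyde back to retinol and is itself a known retinoic acid target, rose from 14.7 and 15.0 to 28.7 and 27.3 CPM (adjusted p = 0.00011). TGM2, transglutaminase 2, another known target, fell from 183 and 162 to 61.8 and 62.6 CPM (log2 fold change -1.46; adjusted p = 4.24e-06). CRABP2, which carries retinoic acid to the nucleus, rose from 0.49 and 0.39 to 1.51 and 1.91 CPM. Those values rest on only about 9 and 7 wild type reads and 32 and 34 resistant reads, and only the resistant samples exceeded 1 CPM. RDH10, which makes retinaldehyde from retinol, read between 1.71 and 1.93 CPM in the 4 samples (adjusted p = 0.77). Without resistant replicate 1 the count of lower genes in this list was 2. RXRA, CRABP2 and RDH10 were chosen after their values were seen.

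Around ALDH18A1, 11 genes of proline and ornithine metabolism were tested, of which 4 were higher and 3 lower (median log2 fold change -0.10, mean 0.01). ODC1, which starts polyamine synthesis from ornithine, rose 1.52 times (limma, adjusted p = 0.00025) and GLUD1, glutamate dehydrogenase, 1.30 times (adjusted p = 0.0022). GLUD1 lost its call without resistant replicate 2 (0.053). ARG2, mitochondrial arginase, was 22.6 ± 2.03 CPM in wild type against 9.08 ± 0.0283 CPM in the resistant subline (SD, n = 2 each; adjusted p = 4.71e-05). PYCR1, a reductase of proline synthesis, was chosen after its values were seen. It read 54.4 and 52.6 CPM in the wild type samples against 56.3 and 46.7 CPM in the resistant ones, and the groups overlapped. The list also holds other reductases of proline synthesis, among which genes were called, so PYCR1 does not stand for that step as a whole. Without resistant replicate 2 the list had 2 genes higher and 1 lower.

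In lysine, choline and carnitine metabolism, the setting of ALDH7A1 and ALDH9A1, 8 genes were tested, of which 2 were higher and 3 lower (median log2 fold change -0.11, mean 0.22). AASS, which opens the lysine breakdown that ALDH7A1 continues, rose from 3.78 and 5.01 to 15.8 and 18.1 CPM (log2 fold change 1.74; limma, adjusted p = 3.71e-05), opposite in direction to ALDH7A1. CHKA, choline kinase, rose from 11.7 and 8.32 to 32.9 and 35.8 CPM (log2 fold change 1.70; adjusted p = 4.44e-05). TMLHE, which hydroxylates trimethyllysine at the start of carnitine synthesis, fell from 32.6 and 32.2 to 21.6 and 22.2 CPM (adjusted p = 0.00085). The choline transporter SLC44A1 fell from 19.8 and 16.6 to 11.8 and 12.0 CPM (adjusted p = 0.0034).

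Fatty aldehydes, the substrates of ALDH3A2, arise from sphingolipid and ether lipid breakdown and from fatty alcohols. Of 14 tested genes of these routes, 6 were higher and 3 lower (median log2 fold change 0.07). The 3 lower genes, named after their values were seen, were PHYH, HACL1 and PLA2G6 (log2 fold changes -0.48, -0.55 and -0.66). SGPL1, the sphingosine phosphate lyase whose product hexadecenal ALDH3A2 oxidises, rose from 40.1 and 33.9 to 66.5 and 63.6 CPM (log2 fold change 0.80; limma, adjusted p = 0.00021). SPHK1, the kinase that makes the substrate of that lyase, rose from 9.10 and 8.04 to 19.7 and 22.5 CPM (log2 fold change 1.20; adjusted p = 7.78e-05). PNPLA8, a phospholipase, rose 1.35 times (adjusted p = 0.0015). Only 5 genes of the list passed without resistant replicate 1 and 4 without resistant replicate 2.

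Other enzymes that handle aldehydes were 5 higher and 4 lower of 16 tested, where 33.5% and 21.6% of all tested genes were so called (median log2 fold change -0.11, mean -0.81). The 4 that fell were aldo-keto reductases, which reduce aldehydes and ketones. AKR1C1 went from 158 and 165 to 0.05 and 0.17 CPM, AKR1C3 from 24.2 and 21.3 to 0.57 and 0.45 CPM, and AKR1C2 from 6.69 and 4.24 CPM to 0 in both resistant samples, where 3 reads would be 0.142 and 0.169 CPM. These genes are close paralogs, among which reads may have been split. AKR1A1 fell from 61.1 and 63.2 to 36.8 and 31.4 CPM (log2 fold change -0.85; limma, adjusted p = 0.00013). ADH5, the enzyme that clears formaldehyde as its glutathione adduct and that also stands in the fatty aldehyde list, rose from 69.2 and 74.5 to 94.3 and 89.3 CPM (log2 fold change 0.35; adjusted p = 0.0042) and lost its call without resistant replicate 1 (0.072). Without that sample 3 genes of the list were higher. Under median-ratio scaling the list had 7 genes lower.

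Amine oxidation yields aldehydes, and of 6 tested genes of polyamine metabolism and amine oxidation 1 was higher and 3 were lower (median log2 fold change -0.43). Spermine synthase SMS fell from 393 and 379 to 207 and 212 CPM (log2 fold change -0.88; limma, adjusted p = 1.92e-05) and spermine oxidase SMOX, whose reaction releases an aldehyde, from 16.9 and 17.8 to 7.65 and 7.70 CPM (adjusted p = 8.06e-05). SAT1, which acetylates spermidine and spermine, fell from 35.5 and 44.5 to 20.5 and 19.8 CPM (adjusted p = 0.00023), with values shared by a Y_RNA row. Spermidine synthase SRM rose from 107 and 102 to 156 and 162 CPM (adjusted p = 0.00016).

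**Figure D3:**
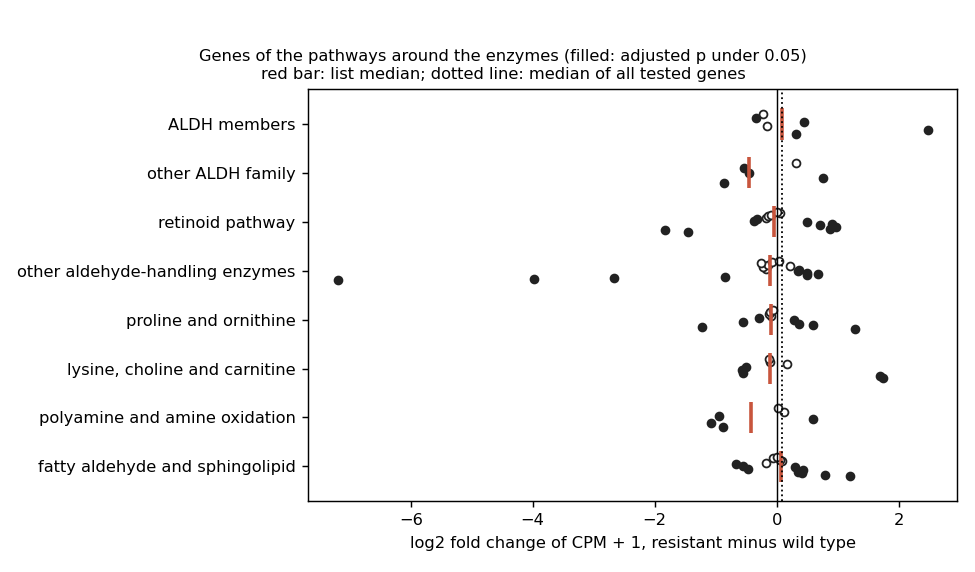
Log2 fold change of CPM + 1, resistant minus wild type (x axis), for the tested genes of each list (rows); filled points passed an adjusted p of 0.05, red bars are list medians and the dotted line is the median of all tested genes, 0.09. List medians lie between -0.46 and 0.09, and each list holds genes on both sides of 0.

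Neighbouring genes were compared to describe whether the tested genes nearest in order changed as well. They were taken by order alone, so their distance from the member was not considered, and DNA copy number was not measured. Around ALDH1A1, 8 of the 10 nearest tested genes in RefSeq order were higher and 2 lower, with a median log2 fold change of 0.56, beside 33.5% higher, 21.6% lower and a median of 0.09 among all tested genes. Without resistant replicate 1 or 2, 6 were higher. The higher neighbours lay between 0.29 and 0.86, all below the 2.48 of ALDH1A1. On one side stands ANXA1, the phospholipid-binding annexin A1, at 534 and 465 CPM in the wild type samples against 715 and 659 CPM in the resistant ones (log2 fold change 0.46; limma, adjusted p = 0.0022, but 0.058 without resistant replicate 1). On the other side the noncoding LINC01474 went from 2.03 and 1.54 to 0.42 and 0.22 CPM (adjusted p = 0.0011). Around ALDH18A1, 6 of 10 neighbours were higher and 1 lower (median 0.56), and with single samples left out 5 to 6 were higher and 0 to 2 lower. TCTN3, a cilium protein gene next to it, rose from 44.7 and 48.2 to 78.5 and 69.3 CPM (log2 fold change 0.66; adjusted p = 0.00036). PDLIM1, on the other side, fell by 0.27 (adjusted p = 0.0156) and lost its call without resistant replicate 1 (0.173) or 2 (0.059).

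The counts around the other members stand beside the same shares of all tested genes, 33.5% higher and 21.6% lower. Some neighbours are pseudogene rows, whose reads may come from similar genes elsewhere, which was not tested. Among those called were RPS2P46 (higher), OLA1P2 and SCDP1 (both lower) around ALDH3A2, and FRG1HP (higher) around ALDH1B1. These 4 rows were named after their values were seen. Around ALDH3A2, 3 of 10 neighbours were higher and 2 lower (median 0.05), with 0 lower without resistant replicate 1 or 2, 1 lower without wild type replicate 2 and 4 lower under both other scalings. AKAP10, an anchoring protein of protein kinase A, rose by a log2 fold change of 0.58 (limma, adjusted p = 0.00091), and SLC47A1, an exporter of organic cations, did not differ by more than the replicate spread (log2 fold change 0.03; adjusted p = 0.86). Around ALDH7A1, 1 neighbour was higher and 2 lower (median 0.02), with 0 higher without either resistant sample or wild type replicate 1 and 1 lower without resistant replicate 2. The log2 fold changes of these 10 neighbours ranged from -4.14 to 0.50. The adjacent PHAX and CSNK1G3 had log2 fold changes of 0.01 and -0.23 (limma, adjusted p = 0.92 and 0.13). Without wild type replicate 2, CSNK1G3 passed as lower (0.0494), as it did under median-ratio scaling (0.0297) and quantile normalization (0.0206). The small values of PHAX and SLC47A1 changed sign without resistant replicate 1 or wild type replicate 2 and under both other scalings. Around ALDH9A1, 0 neighbours were higher and 4 lower (median -0.23, equal to ALDH9A1 itself), with 1 higher without wild type replicate 1. The log2 fold changes of these 10 neighbours ranged from -4.84 to 0.16. MGST3, a microsomal glutathione transferase next to ALDH9A1, fell by 0.37 (limma, adjusted p = 0.0018). TMCO1 on the other side had a log2 fold change of -0.08 (adjusted p = 0.33, but 0.0422 under quantile normalization). Around ALDH1B1, 2 were higher and 1 lower (median 0.12), but leaving out any single sample moved the count of called neighbours, to 1 without either resistant sample and to 5 without either wild type sample. The adjacent SHB and GLIDR did not pass (adjusted p = 0.57 and 0.46). SHB, at 142 and 93.0 CPM in the 2 wild type samples, passed as higher without wild type replicate 1 (0.0025) and as lower without wild type replicate 2 (0.0457).

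**Figure D4:**
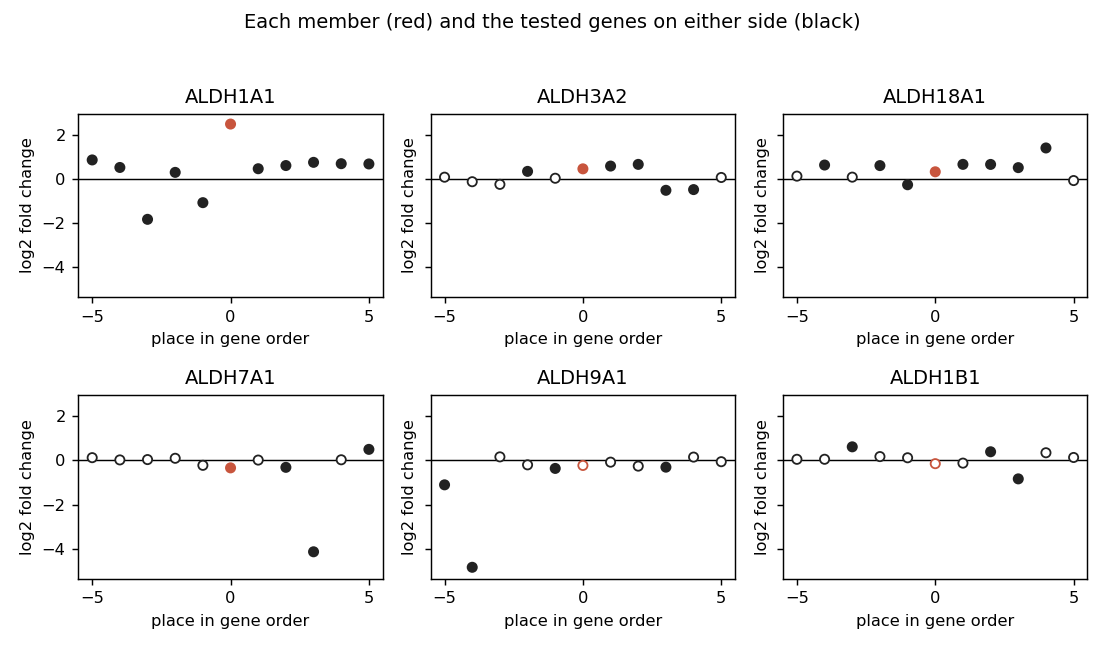
Log2 fold change of CPM + 1, resistant minus wild type (y axis), of each member (red, place 0) and the 5 tested genes on either side in gene order (black); filled points passed an adjusted p of 0.05. Around ALDH1A1, 8 of 10 neighbours are higher but stay below 0.86, while ALDH1A1 is at 2.48.

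The 3 tested genes whose log2(CPM + 1) profile over the 4 samples, centred on its mean, lay nearest to that of ALDH1A1 by Euclidean distance were ADGRB3, ZNF804A and IFITM1. ADGRB3, an adhesion receptor of the brain angiogenesis inhibitor group, read 0.33 and 0.33 CPM in the wild type samples against 6.32 and 6.07 CPM in the resistant ones, at a distance of 0.11. ZNF804A, a zinc finger protein, read 0.16 and 0 against 4.62 and 5.17 CPM, at a distance of 0.13. IFITM1, an interferon-induced membrane protein, read 0.22 and 0.06 against 4.67 and 4.83 CPM, at a distance of 0.16. All 3 started near the detection limit, unlike ALDH1A1, and their likeness rests on the pseudocount of 1 CPM. With 0.1 CPM their log2 fold changes were 3.87, 4.95 and 4.42, while that of ALDH1A1 did not exceed 2.63 in any alternative. In addition, 4 samples cannot separate likeness of profile from the group difference itself.

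Over the listed genes, the reads worked out from the CPM of 1 read summed to about 17800730 to 21189219 per sample. The total sequencing depth is not known from them. Across tested genes the replicates correlated at 0.995 and 0.996 and samples of different groups between 0.952 and 0.953 (Pearson's r of log2(CPM + 1); genes are not independent replicates). Of the preset markers of other cells, 2 of 8 blood cell, 3 of 6 fibroblast and 0 of 5 endothelial symbols had a row. Summed, the blood cell rows, nearly all CD68, read 53.2 to 72.7 CPM in wild type and 28.7 to 30.7 CPM in resistant samples, and the fibroblast rows 0.87 to 0.94 and 2.21 to 2.58 CPM. Their part in these results was not tested. Of 12 luminal urothelial symbols 2, the keratins KRT8 and KRT18, had rows, which were lower in resistant cells, 0 of the 2 general epithelial markers had one, and of 4 mesenchymal markers VIM read between 1336 and 1432 CPM in the 4 samples (log2 fold change 0.04; limma, adjusted p = 0.67), ZEB2 and CDH2 rose by 1.51 and 1.08 (adjusted p = 2.50e-05 and 4.60e-05) and ZEB1 fell by 0.97 (5.91e-05). Of 8 basal urothelial symbols 4 had rows, of which CD44 and ITGA6 fell by 1.17 and 0.90 (log2; adjusted p = 6.61e-05 and 3.17e-05), EGFR rose by 0.54 (0.00175) and TP63, at 0.99 CPM or less, was not tested. In bulk RNA, a change in the number of cells that express a gene and a change in RNA per cell cannot be told apart.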

How the data were processed

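CAGE libraries of 4 samples were analysed from 1 deposited table. Random-primed cDNA of total RNA was selected by its biotinylated cap, per the labels' protocols. The submitters' processing notes name the aligner BWA 0.5.9, hg19 and mm9 without a role; the sources used here do not give the counting tool, annotation, strand use or gene filter. The deposited CPM values are scaled by the authors to the total of each column over the listed genes.

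A read was worth 0.0472 to 0.0562 CPM depending on the column, and all values were whole multiples of that step to within 0.0052 CPM. In resistant replicate 1 that rounding reached 0.106 of a read, and 92.5% of its values up to 20 reads lay within 0.1 of a whole read, against 100% in the other columns. That is under the 95% required here for a count model, so none was fitted; read numbers are these values rounded to whole reads. Genes at a 4-sample mean of 1 CPM or more were fitted in limma 3.58.1 under R 4.3.3 (eBayes with a trend) on log2(CPM + 1), which understates the change of low genes. Lists, neighbours and family sums were described without set tests. Of the tested rows, 11372 had 1 symbol match in the RefSeq gene table used for gene order, and 99.3% of identifiers matched GENCODE 29, used for overlaps and exons. Without known strand use, reads of overlapping genes may not be separated. Promoter sequences come from RefSeq; windows with more than 30 of the 140 bases in annotated exons were not printed.

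The genes named are the members, up to 4 genes per list with the smallest adjusted p, the adjacent tested genes and the 3 nearest profiles; exceptions are stated. One gene that this rule names is not reported here. Members and lists were chosen with earlier results of these data known. Group sizes of 2 limit the precision. Alternatives varied the pseudocount, filter, scaling, variance model, replicate block and left-out sample.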

Additional observations from a re-analysis of the deposited data

How the results depend on the processing

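The calls of the members, lists, neighbours and named genes were recomputed under 13 alternatives, except that genes under 5 CPM could not be fitted with that filter. Family sums, the choice of nearest profiles and marker values were not recomputed. ALDH1A1 and ALDH3A2 kept their direction and their call in all of them, with log2 fold changes of 2.38 to 2.63 and 0.34 to 0.50. No member changed direction. ALDH18A1 lost its call under median-ratio scaling (0.23), quantile normalization (0.19) and no trend (0.32), and ranged from 0.20 to 0.44 when single samples were left out. ALDH1B1 passed as lower under median-ratio scaling (-0.24) and quantile normalization (-0.29), and ALDH9A1 likewise (-0.32 and -0.36); the median of all genes was 0.09 as deposited and 0.0012 and 0.013 under those scalings. Leaving out single samples moved ALDH7A1 between -0.25 and -0.43 and ALDH9A1 between -0.12 and -0.35. It gave 2 to 4 members called, 2 to 3 higher and 0 to 2 lower, with 3 lower under both other scalings. It gave 32 to 48 called list genes, of which 15 to 25 were lower, and 4279 to 6790 of all tested genes, 2556 to 4316 higher and 1636 to 2787 lower. The cause was not tested.

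With the replicate number as a block (replicate block), 7098 genes were called and 4 members, 3 higher and 1 lower, and no member changed its call; of the other genes named, ALDH4A1 passed as higher (adjusted p = 0.0378). The labels do not say that the numbers pair samples, and the deviations of same-numbered samples correlated at -0.079. Among genes of uncalled change, directions reversed: RDH10 read -0.0068 under median-ratio scaling, PYCR1 ranged from -0.19 to 0.073 with single samples left out, SLC47A1 read -0.052 under median-ratio scaling and -0.014 under quantile normalization and PHAX -0.081 and -0.098, and with single samples left out SLC47A1 ranged from -0.057 to 0.11, PHAX from -0.089 to 0.11, SHB from -0.19 to 0.42 and GLIDR from -0.25 to 0.0024. Each member had at least 252 reads per group. Whether depth limited the calls of the members with small differences was not tested, and genes under a mean of 1 CPM were not fitted in the main test. Where a sample was left out, the lone sample of its group was assumed to vary like the other group.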
